A study of Homo sapiens with 9 samples.

Results

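The S100 probes of the array were selected on their gene names, as every probe named S100A1, S100A2, S100A4, S100A6, S100A7, S100A8, S100A9, S100A10, S100A11 or S100P. This choice gave 11 probes of the 25378 that name a gene, and they cover 9 of the 10 genes, out of 19402 gene names on the array. S100A1 and S100A8 have 2 probes each, and S100A7 was not analysed here because no probe bears its name. S100A1 was picked because its signal had shifted in opposite directions at 10 µM and 20 µM baicalein in these same arrays, so its differences between doses are given as a description, without a test.

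S100 proteins are small calcium-binding proteins with a pair of EF-hand motifs, which usually work as dimers. In many members, calcium binding exposes a surface by which the dimer holds its target proteins. Targets of the family include annexins, cytoskeletal proteins and calcium channels. Several members are also released from cells and bind surface receptors such as RAGE and TLR4, and in squamous epithelia the family is known for roles in differentiation, inflammation and the spread of tumours.

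HK-1 is a cell line of nasopharyngeal carcinoma (NPC), an epithelial cancer, and was grown as a monolayer in dishes. Whole-culture RNA was hybridised on single-colour Cy3 arrays, with 3 arrays of control cells, 3 of cells given 10 µM baicalein and 3 of cells given 20 µM. Baicalein, a flavonoid of *Scutellaria baicalensis*, came from a stock in DMSO, was diluted in serum-free medium and left on the cells for 24 h, and the design text of the series adds 24 h in full medium before harvest for baicalein-treated cells, without a separate account of the control cells. The control cells are called untreated in the sample labels and 1% DMSO in the methods of the study, which describe arrays of control and 10 µM cells only. All groups come from this single line, and the spread given here is that between the 3 arrays of a group.

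The arrays had a median raw intensity over gene probes of 7333 to 10286 in control cells, 7511 to 9589 in cells at 10 µM and 7532 to 8770 in cells at 20 µM, of which 86.5% to 88.3% was local background. A probe was counted as detected on an array where its net intensity, the raw intensity less the local background, exceeded the 95th percentile for the array's 8926 empty spots. That bound lay between 1266 and 1430 for control cells, between 1302 and 1519 for 10 µM and between 1303 and 1823 for 20 µM. The share of gene probes past the bound was highest on control replicate 1 (17.0%) and lowest on 20 µM replicate 1 (6.85%). Of 19402 genes, each taken by its brightest probe, 67.8% passed it on no array and 4.08% on all 9. Of the 11 epithelial markers with a probe, 8 were detected on no array and none on all 9, with KRT5 detected on 3 arrays and EPCAM and KRT19 on 1 each. By the scan code in their headers, the arrays form 3 batches with 1 array of each group.

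Of the 11 S100 probes, 2 were detected on all 9 arrays, namely one of the S100A1 probes and the S100A4 probe. S100A10 was detected on 2 arrays and S100A2 on 1. The other 7 probes, for S100A6, S100A9, S100A11, S100P, both S100A8 probes and the second S100A1 probe, were detected on none. For those probes, intensities lay within the range of spots that carry no probe, and a difference between groups cannot be read as a difference in transcript.

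**Figure D1:**
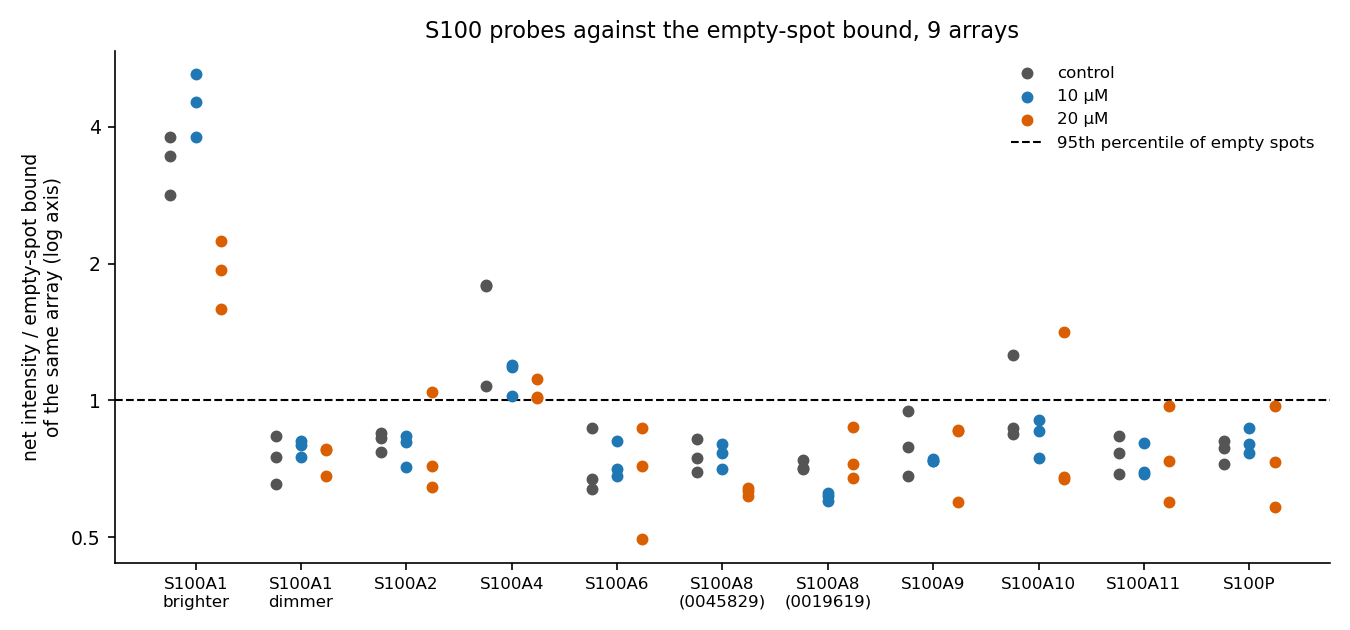
Net intensity of each S100 probe divided by the empty-spot bound of the same array (log axis), with 1 point per array and the 3 groups side by side; the dashed line is the bound. The brighter S100A1 probe lies above the line on all 9 arrays and S100A4 just above it, while S100A10 passes on 2 arrays, S100A2 on 1 and the remaining 7 probes on none.

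The brighter S100A1 probe gave net intensities of 5426, 3783 and 4361 in control cells, 5769, 5891 and 7076 at 10 µM, and 4084, 2073 and 2665 at 20 µM. S100A1 is best known from heart and skeletal muscle, where it binds the ryanodine receptor and the calcium pump of the sarcoplasmic reticulum. All 10 µM values were above all control values, and the 20 µM values were the lowest except for replicate 1, which lay within the control range. Mean net intensity was 4524 ± 833 in control cells, 6245 ± 722 at 10 µM and 2941 ± 1033 at 20 µM (SD, n = 3 each). The 20 µM arrays lay 1.59 to 2.24 times above their bounds, the nearest of the 9 arrays to them. Each array reports the RNA of a whole culture, so fewer expressing cells and less RNA per cell cannot be told apart.

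Raw intensities of the same probe were 14152, 11581 and 10818 in control cells, 14610, 12232 and 13832 at 10 µM, and 12387, 9282 and 10182 at 20 µM. These overlapped between all groups before the arrays were brought to a common scale. After log2 transformation, median centring and quantile normalization, the values were 0.49, 0.54 and 0.56 in control cells, 0.70, 0.72 and 0.82 at 10 µM, and 0.27, 0.27 and 0.30 at 20 µM. On that scale the groups did not overlap, with 10 µM above and 20 µM below control cells. The difference in mean log2 raw intensity was 0.22 (SE 0.048) for 10 µM minus control and −0.25 (SE 0.048) for 20 µM minus control. The 2 doses themselves differed by −0.47 (SE 0.048), 20 µM minus 10 µM. Without overlap between arrays, 2.04% of the 25378 named probes were higher at 10 µM and 3.27% were lower at 20 µM than in control cells. Both together, in the order shown by S100A1, held for 14 probes, or 0.0552%, and S100A1 was chosen for that order.

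Subtracting the local background made the difference at 10 µM larger and left that at 20 µM less separate from control. In normalized log2 net intensity the difference was 0.62 (SE 0.14) at 10 µM, or 1.53-fold over control, and the 10 µM arrays lay wholly above the control arrays, as did those of 5.05% of named probes. At 20 µM it was −0.29 (SE 0.14), or 0.82 of control, and the 20 µM arrays (1.45 to 1.89) overlapped the control arrays (1.84 to 2.01). Between doses it was −0.91 (SE 0.14), with no overlap, as for 5.74% of named probes that were lower at 20 µM than at 10 µM.

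**Figure D2:**
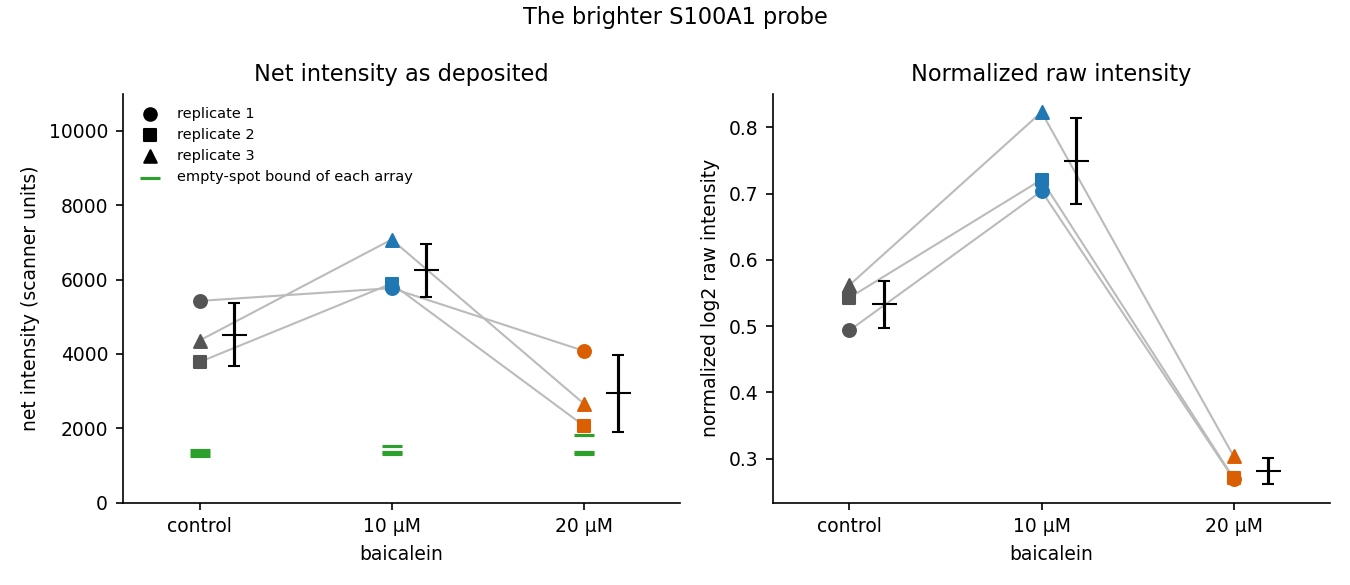
The brighter S100A1 probe on each array, as net intensity with the empty-spot bound of each array (left) and as normalized log2 raw intensity (right); markers and grey lines join arrays of the same replicate number, and crosses with bars give the mean and SD. In both panels every 10 µM array is above every control array, whereas the 20 µM arrays are below all control arrays only in the right panel.

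Each scan batch showed the same order on normalized raw intensity, which follows from the groups not overlapping on that scale. The difference between the 10 µM and the control array of a batch was 0.21, 0.18 and 0.26 in batches 1, 2 and 3 on log2 raw intensity, and 0.43, 0.70 and 0.71 on net intensity. The difference between the 20 µM and the control array was −0.22, −0.27 and −0.26 on raw intensity, and −0.022, −0.39 and −0.47 on net intensity. In batch 1 the 20 µM difference was thus close to 0 on net intensity.

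The 20 µM value of S100A1 stood among bright probes of which most were lower at that dose. Of the 799 named probes detected on all 9 arrays, 710 were lower and 89 higher at 20 µM than in control cells on raw intensity, with a median difference of −0.16. On net intensity 661 were lower and 138 higher, with a median of −0.17. Of these 799, 143 were lower at 20 µM by more than S100A1 on raw intensity and 213 on net intensity. At 10 µM the medians of the same probes were nearer to 0, at −0.019 on raw intensity (327 higher and 472 lower than control) and 0.0020 on net intensity (404 higher and 395 lower). At that dose 18 of them were higher by more than S100A1 on raw intensity and 7 on net intensity. With cyclic loess in place of quantile normalization, S100A1 differed by 0.24 at 10 µM and −0.035 at 20 µM. The part of the general shift of bright probes in the 20 µM value of S100A1 was not tested.

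**Figure D3:**
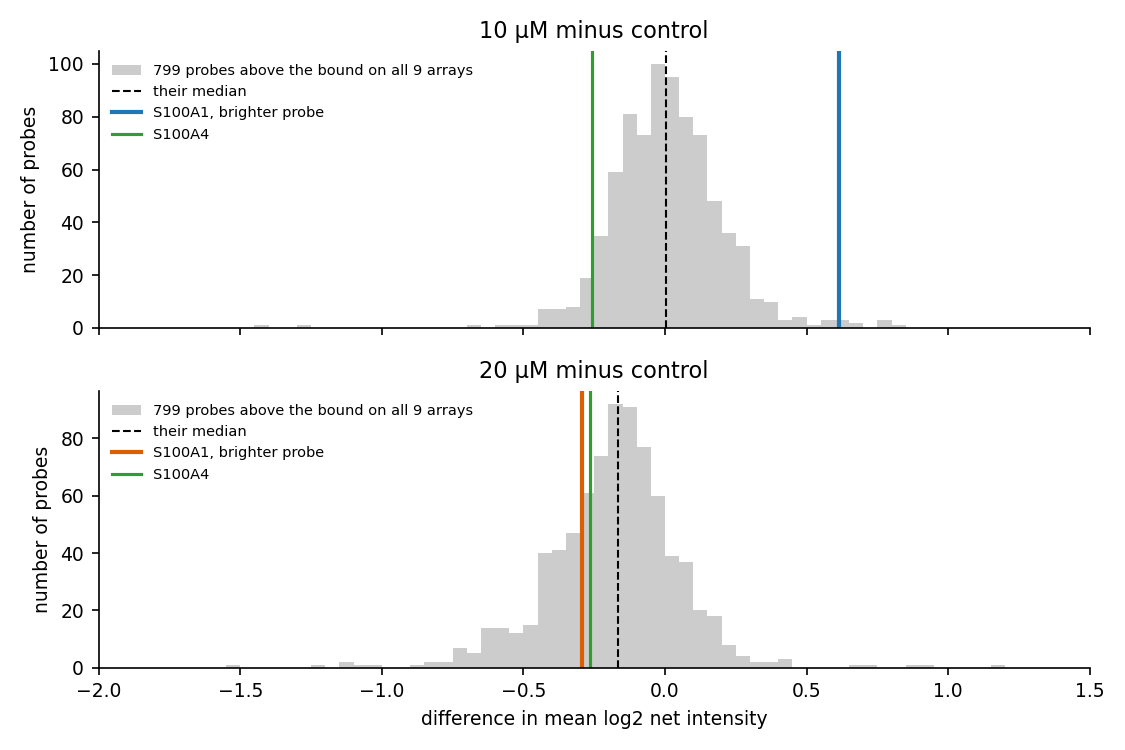
Differences from control in mean log2 net intensity of the 799 named probes detected on all 9 arrays (grey bars, number of probes per bin), with their median (dashed) and the values of the brighter S100A1 probe and of S100A4, at 10 µM (top) and 20 µM (bottom). S100A1 lies at 0.62 in the far right of the top panel, and in the bottom panel at −0.29 within a distribution centred at −0.17.

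The second S100A1 probe did not show these differences. Its net intensity was 1195, 1002 and 827 in control cells, 1139, 1036 and 1103 at 10 µM, and 1243, 1011 and 1076 at 20 µM, below the bound on all arrays. The difference in log2 raw intensity was 0.00018 (SE 0.058) at 10 µM and −0.025 (SE 0.058) at 20 µM. The array files do not say which part of the transcript either probe covers. S100A13, which in the RefSeq annotation of GRCh38.p14 neighbours and overlaps S100A1 on chromosome 1, had a single probe that was detected on no array and differed by 0.019 at 10 µM and −0.0026 at 20 µM (SE 0.052).

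The 5 genes whose normalized raw intensity followed that of the brighter S100A1 probe most closely over the 9 arrays, among 798 other named probes detected on all of them, were KLHDC4 (Pearson r = 0.89), PHF21B (0.87), TIGIT (0.86), RAB15 (0.85) and DDAH2 (0.84). These points share the arrays, their background and the normalization, and the values are a description. All of them had a lower mean at 20 µM than in control cells, by −0.21 for KLHDC4, −0.22 for PHF21B, −0.084 for TIGIT, −0.20 for RAB15 and −0.13 for DDAH2. That direction follows from the choice by likeness, and 710 of the 799 probes had it. At 10 µM their differences from control, 0.014 to 0.091, were smaller than that of S100A1.

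S100A4, which binds non-muscle myosin and is known for its link with cell motility and metastasis, had net intensities of 2549, 2395 and 1360 in control cells, 1556, 1538 and 1617 at 10 µM, and 1855, 1450 and 1396 at 20 µM. Control replicates 1 and 2 stood above all other arrays, and control replicate 3 was the lowest of the 9, so the groups overlapped. In log2 raw intensity S100A4 differed by −0.047 (SE 0.064, unadjusted p = 0.483 in limma) at 10 µM and by −0.070 (SE 0.064, unadjusted p = 0.303 in limma) at 20 µM. Without control replicate 1 these differences were −0.013 and −0.036, and without control replicate 3 they were −0.11 and −0.13. On net intensity the differences were −0.26 (SE 0.16) and −0.27 (SE 0.16). Within batches 1 and 2 both doses were below control on net intensity, by −0.42 and −0.50 at 10 µM and by −0.31 and −0.48 at 20 µM, whereas batch 3 gave 0.15 and −0.016. Against a stricter bound, the 99th percentile of the empty spots, S100A4 was detected on 3 arrays and the brighter S100A1 probe on all 9.

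S100A10 and S100A11, the partners of annexin A2 and annexin A1, were below the bound on most arrays, S100A11 on all 9 and S100A10 on 7. S100A10 had net intensities of 1796, 1122 and 1101 in control cells, 1299, 1179 and 1011 at 10 µM, and 1223, 1843 and 935 at 20 µM. Its 2 detected arrays were control replicate 1 and 20 µM replicate 2, and the local background around the spot on 20 µM replicate 2 was 14208, against 6630 and 7522 on the other 20 µM arrays. The difference in log2 raw intensity was 0.17 (SE 0.23) at 20 µM, and −0.17 without that array. At 10 µM it was 0.00066 (SE 0.23). S100A11 had net intensities of 872 to 1112 in control cells, 941 to 1050 at 10 µM and 1015 to 1263 at 20 µM, and differed by −0.084 at 10 µM and −0.044 at 20 µM (SE 0.085) on raw intensity.

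S100A6, also called calcyclin, binds the ubiquitin-ligase adaptor CACYBP. Its net intensity was 848 to 1240 in control cells, 918 to 1236 at 10 µM and 900 to 1196 at 20 µM, with differences of −0.076 and −0.063 (SE 0.093) on raw intensity. S100P, which binds RAGE and ezrin and is the one gene of the set outside the chromosome 1 cluster, on chromosome 4, had 918 to 1125 in control cells, 1083 to 1162 at 10 µM and 954 to 1338 at 20 µM. Its raw differences were 0.064 and 0.063 (SE 0.063), and without control replicate 3 they were −0.0013 and −0.0021. For both genes the groups overlapped at each dose.

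S100A2, a member known from basal epithelial cells, had net intensities of 1181, 1028 and 1070 in control cells, 1230, 928 and 1129 at 10 µM, and 1903, 840 and 988 at 20 µM. The single detected value, on 20 µM replicate 1, was the highest of the 9 and the value of replicate 2 the lowest, so that the 20 µM arrays spanned all others. The local background on 20 µM replicate 1 was 10344, against 6353 and 8150 on the other 20 µM arrays. On raw intensity S100A2 differed by 0.034 at 10 µM and 0.078 at 20 µM (SE 0.074).

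S100A8 and S100A9 form the heterodimer calprotectin, which myeloid cells and inflamed epithelia produce in quantity. S100A9 had net intensities of 1354, 907 and 1000 in control cells, 1114, 968 and 996 at 10 µM, and 1089, 1115 and 1184 at 20 µM. On normalized raw intensity all 3 of its 10 µM arrays were below all control arrays, a pattern shared by 3.2% of named probes, and the difference was −0.076 (SE 0.053, unadjusted p = 0.179 in limma). At 20 µM the S100A9 difference was −0.048, and on net intensity its groups overlapped at both doses.

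The S100A8 probe PH_hs_0019619 had net intensities of 1015, 940 and 934 in control cells, 914, 812 and 834 at 10 µM, and 1226, 943 and 1205 at 20 µM. On normalized net intensity it was lower at 10 µM than in control cells without overlap, by −0.17 (SE 0.11), as were 5.04% of named probes in that direction. At 20 µM it was higher than at 10 µM without overlap, by 0.37 (SE 0.11), as were 4.58% of named probes. On raw intensity its groups overlapped, with differences from control of −0.083 at 10 µM and 0.094 at 20 µM (SE 0.094). The other S100A8 probe, PH_hs_0045829, had raw differences of −0.0072 and 0.034 (SE 0.071). Its net differences, 0.066 at 10 µM and −0.13 at 20 µM, had the opposite sign to those of PH_hs_0019619 at both doses. Both probes were below the bound on all 9 arrays.

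For the 10 S100 probes other than the brighter S100A1 probe, limma with Benjamini-Hochberg adjustment over the 25378 named probes called none at an adjusted p under 0.05, at 10 µM, at 20 µM or between doses, and their lowest adjusted p was 0.993. The same fit called 0% of named probes in each of the 3 comparisons. At an unadjusted p under 0.05 the counts among the 10 probes were also 0, with lowest values of 0.179 at 10 µM, 0.303 at 20 µM and 0.0904 between doses. Over all named probes the shares at that unadjusted threshold were 0.78% at 10 µM, 2.34% at 20 µM and 3.37% between doses. With the equal-variance test that the methods name, run on the same values, 1 of the 10, S100A9, passed the unadjusted threshold at 10 µM and none did at 20 µM, against 2.27% and 2.06% of all named probes. Between doses, the S100A8 probe PH_hs_0019619 passed the unadjusted threshold in limma on net intensity, after normexp background correction, in the authors' table and without 20 µM replicate 2, settings in which 5.23%, 5.39%, 5.32% and 5.44% of all named probes did. Without 20 µM replicate 2, S100A2 passed it at 20 µM, as did 3.98% of all named probes. None of the 10 passed the adjusted threshold in any of these settings. Of the 10 differences in log2 raw intensity, 4 were higher and 6 lower at 10 µM (−0.084 to 0.064), with a median of −0.027 against 0.0017 over all named probes. At 20 µM, 5 were higher and 5 lower (−0.070 to 0.17), with a median of 0.0047 against −0.00047. Standard errors were 0.053 to 0.23, and the largest difference in units of its own standard error was 1.44 at 10 µM and 1.09 at 20 µM.

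**Figure D4:**
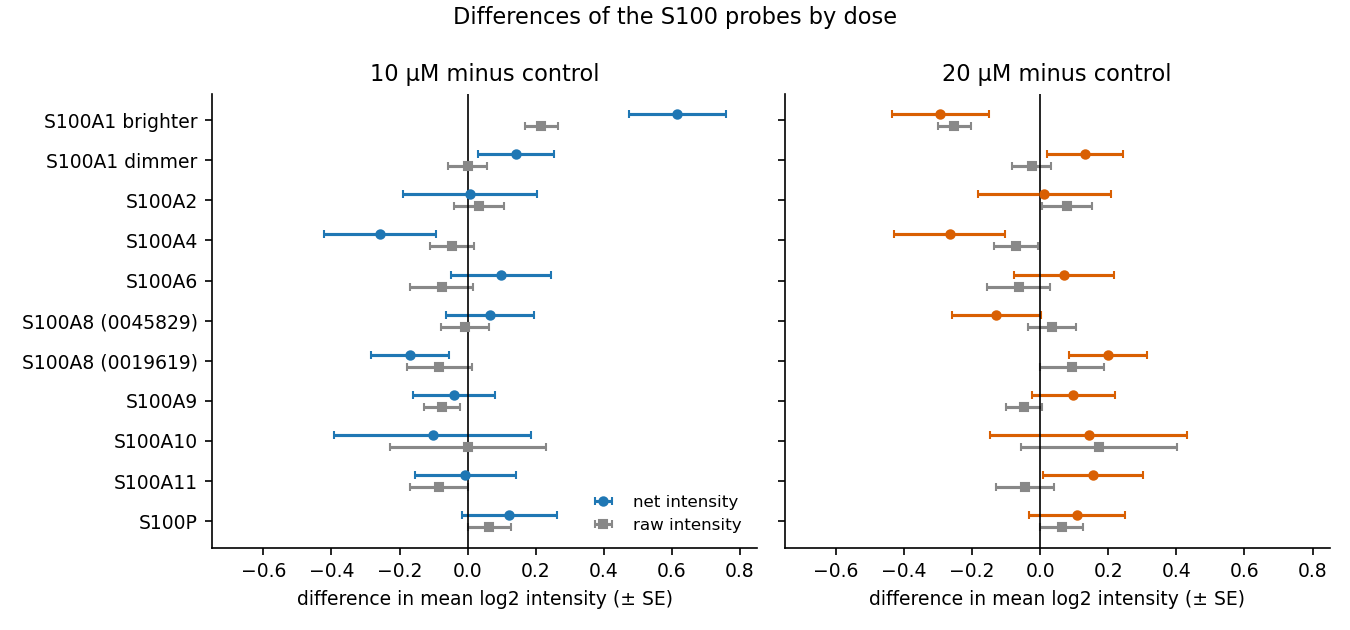
Difference from control in mean log2 intensity of each S100 probe at 10 µM (left) and 20 µM (right), on net intensity (coloured circles) and raw intensity (grey squares), with bars of 1 SE from the limma fit of all 9 arrays. The brighter S100A1 probe lies at 0.62 and 0.22 at 10 µM and at −0.29 and −0.25 at 20 µM, and the other 10 probes lie between −0.27 and 0.20.

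The array also carried 15 probes of 12 related genes, that is, further S100 genes and S100PBP, which encodes a binding partner of S100P. None of these probes was detected on all 9 arrays and 12 were detected on none, with S100A12 detected on 7 arrays, S100A5 on 3 and S100Z on 1. None had an unadjusted p under 0.05 against control in limma, with raw differences of −0.15 to 0.11 at 10 µM and −0.11 to 0.068 at 20 µM. In the comparison of the 2 doses, 2 of the 15 probes passed that threshold, beside 3.37% of all named probes. Most genes of the set form a cluster on chromosome 1 in which S100A1 and S100A13 lie at one end and S100A10 and S100A11 at the other. Of the 27 measured genes of the adjoining epidermal differentiation complex (40 listed), which encodes cornified-envelope proteins, none was detected on all arrays and none passed an unadjusted p of 0.05 against control, whereas 22 were detected on none. At 20 µM against 10 µM, 1 of the 27 was lower at that threshold, beside 3.68% of all genes.

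None of the measured receptors, annexins and intracellular partners of S100 proteins was detected on all 9 arrays. For genes detected on no array, neither a difference nor its absence can be read as one of transcript. Of the 7 receptors, which include RAGE (AGER) and TLR4, 5 were detected on no array and none passed an unadjusted p of 0.05 at either dose. Of all 19402 genes, each by its brightest probe, 0.794% passed it at 10 µM and 2.88% at 20 µM. The 23 intracellular partners include the ryanodine receptors, CACYBP and non-muscle myosin heavy chains, and 12 of them were detected on no array. They likewise had none past that threshold, with 10 higher and 13 lower at each dose. Of 8 annexins, 5 were detected on no array. ANXA3 alone passed an unadjusted p of 0.05 against control, differing by 0.16 (SE 0.063) at 10 µM, and it was detected on 1 array. At 20 µM against 10 µM, 1 of the 8 annexins was lower at that threshold, beside 3.68% of all genes. No receptor or intracellular partner passed it there. None of these genes passed the Benjamini-Hochberg threshold in limma.

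Among 29 other EF-hand proteins, TNNC2, the fast skeletal troponin C, was the one gene with an unadjusted p under 0.05 against control, 1 of 29 beside 2.88% of all genes at 20 µM. Between doses 2 of the 29 were higher and 2 lower at that threshold, which 3.68% of all genes passed. Of the 29, 18 were detected on no array and 1, TNNC2, on all 9. Its net intensity was 3133, 2573 and 2972 in control cells, 2799, 2396 and 2556 at 10 µM, and 2019, 1331 and 1574 at 20 µM, above the bound on all 9 arrays. All 20 µM values were below all others. The difference in log2 raw intensity was −0.20 (SE 0.049, unadjusted p = 0.00238 and adjusted p = 1.00 in limma) at 20 µM and −0.040 at 10 µM. This 20 µM difference lies, as that of S100A1 does, among bright probes of which most were lower at that dose.

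Of the markers of other cell types, 4 of 7 for fibroblasts, 7 of 8 for leukocytes and 4 of 6 for endothelium were detected on no array. PDGFRB was detected on all 9 arrays, TEK and CLDN5 on 8 and ITGAM on 4. The summed net intensity of the epithelial markers was 11275 to 13219 in control cells, 11392 to 13284 at 10 µM and 11463 to 13032 at 20 µM. That of the leukocyte markers was 8179 to 9432 in control cells, 8285 to 10383 at 10 µM and 7882 to 9144 at 20 µM, so the ranges overlapped for both lists. For the fibroblast markers it was 11532 to 13686 in control cells, 9599 to 12267 at 10 µM and 10473 to 10942 at 20 µM, below all control arrays at 20 µM. For the endothelial markers it was 6921 to 8221 in control cells, 7136 to 8022 at 10 µM and 6750 to 7185 at 20 µM. The empty-spot bounds summed over the same genes were 13923 to 15727 for epithelial and 10126 to 11438 for leukocyte markers in control cells. In every group the sums of these 2 lists lay below such bounds, so they cannot show whether the cell make-up changed. For fibroblast markers the bounds were 8860 to 10008 in control cells and 9119 to 12758 at 20 µM, a range that holds the 20 µM sums. For endothelial markers at 20 µM they were 7816 to 10936, above all sums at that dose. The sums were not normalized between arrays, so a lower sum in these lists cannot be read as a change of cell make-up either. THY1, a fibroblast marker, was the one marker past an unadjusted p of 0.05 against control, which 2.88% of all genes passed at 20 µM. It differed by −0.13 at 20 µM and was detected on 1 array. At 20 µM against 10 µM, 2 of the 11 epithelial markers were higher at that threshold and none lower, beside 3.68% of all genes. Of the 7 fibroblast markers 3 had a higher mean at 20 µM than in control cells, among them PDGFRB (0.13). The part of these markers in the S100 values was not tested.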

How the data were processed

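The authors deposited, for each of the 9 HK-1 arrays, scanner files with a raw, a local background and a net intensity per spot. A further table deposited by the authors holds processed values of the same arrays in unstated units, used here as a score with the direction of its columns read from their labels. The sources used here do not give its scaling or centring, nor the genome build behind the probes, and gene names are those of the files.

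Raw intensity was log2-transformed, centred on each array's median and quantile-normalized over 29187 gene probes, the steps named in the study's methods. Net intensity, with values under 1 set to 1, went through the same steps. All 3 groups entered 1 fit in limma 3.58.1 (R 4.3.3), with Benjamini-Hochberg adjustment over 25378 named probes. Brighter and dimmer probes of a gene were told apart by mean log2 net intensity over the 9 arrays. Each list gene stands by its brightest probe. The fit was tested on simulated data. The number of arrays limits the precision, and p-values set a mean difference against the spread between arrays.

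The S100 members and the gene lists were chosen with earlier results of these data known. Named were every member probe, list genes with an unadjusted p under 0.05 against control at either dose, and the 5 probes of highest Pearson r with S100A1. Coordinates are not given, since the build of the files is not stated; gene order came from RefSeq (GRCh38.p14). The array files hold no probe sequences.

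Replicate numbers coincide with the 3 scan batches. Deviations of same-numbered 10 µM and control arrays from their group means had correlations of 0.137 to 0.225 on raw intensity. For 20 µM and control arrays they were −0.331 to −0.230, and for 20 µM and 10 µM arrays −0.110 to −0.0738. Arrays of different numbers gave −0.215 to 0.0343, 0.0872 to 0.213 and −0.0011 to 0.0950, in the same order. Within groups of 3 arrays such correlations are tied to each other, so they do not settle whether the numbers pair arrays beyond the scan batch. The values given come from the fit without pairing, and the replicate block was an alternative. Alternatives were net intensity, normexp background correction (offset 50), median centring alone, cyclic loess, the 6 arrays of a comparison alone and the replicate block. Further ones were limma with trend and robust, the methods' t-test, the authors' table, other detection bounds, and leaving out each array in turn. Another kept only the 1964 named probes whose mean log2 net intensity was above the mean log2 bound. Figures were drawn with matplotlib 3.10.9.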

Additional observations from a re-analysis of the deposited data

Results flagged for a closer look

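The brighter S100A1 probe moved in opposite directions at the 2 doses, with every 10 µM array above and every 20 µM array below the control arrays on normalized raw intensity. The 20 µM arrays differed from the 10 µM arrays by −0.47 in mean log2 raw intensity. The difference between doses was not tested, since the probe was picked for it in the same arrays. Its order on normalized raw intensity held for 14 of the 25378 named probes, or 0.0552%. On net intensity its 20 µM arrays overlapped the control arrays, and with cyclic loess its 20 µM difference was −0.035. Of the 799 named probes detected on all 9 arrays, 710 were lower at 20 µM than in control cells on raw intensity. The second S100A1 probe, below the empty-spot bound on all arrays, differed by −0.025 between the doses.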

How the results depend on the processing

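For the 10 S100 probes other than the brighter S100A1 probe, the 3 counts called at an adjusted p under 0.05 were 0 under all alternatives run. The replicate block was among these and changed no call of the 10. The alternative limited to brighter probes tested only 2 S100 probes, S100A4 and the brighter S100A1 probe, so the others could not be called there. Over all 25378 named probes, the number at an unadjusted p under 0.05 at 10 µM was 198 without the block, 130 with the replicate block and 533 with the block on the 6 arrays alone, and ranged from 90 (median centring alone) to 1035 (normexp). At 20 µM it was 594 and ranged from 332 (the block on 6 arrays) to 1423 (the authors' table), and between doses 856, ranging from 606 (the block on 6 arrays) to 1633 (without 20 µM replicate 3). The brighter S100A1 probe kept its direction at each dose on net intensity, after normexp, with median centring, with cyclic loess and in the authors' table. The cyclic loess value at 20 µM was smaller than 0.048, the standard error of the fit after quantile normalization. The probe was picked for these directions in the same arrays, so their agreement is a description. Its groups did not overlap on normalized raw intensity, so leaving out 1 array could not change the sign. The replicate block could not change a mean difference, since each batch holds 1 array of each group. The difference of the brighter S100A1 probe at 10 µM was 0.22 on normalized raw intensity. It was 0.62 on net intensity, 0.73 after normexp and 2.11 in the units of the authors' table. Its difference at 20 µM was −0.38 after normexp, −0.19 with median centring alone, −0.035 with cyclic loess and −1.37 in the authors' table. Between doses the values were −0.91 on net intensity, −1.12 after normexp, −0.38 with median centring, −0.28 with cyclic loess and −3.48 in the authors' table. Leaving out 1 array gave 0.18 to 0.24 at 10 µM, −0.27 to −0.24 at 20 µM and −0.49 to −0.43 between doses. With the 99th percentile as the bound, 1 S100 probe was detected on all 9 arrays, and 0 were by raw intensity against raw empty spots, against 2 with the 95th percentile of net intensity. For the other 10 probes, 52 of the 220 alternative values that were free to differ changed sign, in 17 of 20 differences. On net intensity these were, at 10 µM, S100A6 (0.098), S100A10 (−0.10) and S100A8 probe PH_hs_0045829 (0.066), and at 20 µM the dimmer S100A1 probe (0.13), S100A6 (0.070), S100A8 probe PH_hs_0045829 (−0.13), S100A9 (0.098) and S100A11 (0.16). After normexp they were, at 10 µM, S100A2 (−0.0083), S100A6 (0.47), PH_hs_0045829 (0.30) and S100A10 (−0.28), and at 20 µM the dimmer S100A1 probe (0.56), S100A2 (−0.28), S100A6 (0.27), PH_hs_0045829 (−0.59), S100A9 (0.41), S100A10 (−0.050) and S100A11 (0.51). In the authors' table they were, at 10 µM, S100A2 (−0.032), S100A6 (0.28), PH_hs_0045829 (0.19) and S100A10 (−0.42), and at 20 µM the dimmer S100A1 probe (0.42), S100A2 (−0.0084), S100A6 (0.21), PH_hs_0045829 (−0.45), S100A9 (0.29) and S100A11 (0.48). Median centring turned the dimmer S100A1 probe at 20 µM (0.033) and PH_hs_0045829 at 10 µM (0.0045), and cyclic loess turned the dimmer S100A1 probe (0.0024) and S100A4 (0.042) at 20 µM. Leaving out 1 array spanned 0 at 10 µM for the dimmer S100A1 probe (−0.028 to 0.024), S100A6 (−0.18 to 0.030), PH_hs_0045829 (−0.087 to 0.038), PH_hs_0019619 (−0.16 to 0.0018), S100A10 (−0.077 to 0.049), S100A11 (−0.15 to 0.0090) and S100P (−0.0013 to 0.11). At 20 µM it did so for the dimmer S100A1 probe (−0.076 to 0.027), S100A2 (−0.0064 to 0.16), S100A6 (−0.16 to 0.042), S100A10 (−0.17 to 0.35), S100A11 (−0.11 to 0.049) and S100P (−0.0021 to 0.11). The cause was not tested. For 9 of the 11 probes, intensities were at or near those of empty spots.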
